A study of Rattus norvegicus with 3 samples.

Results

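Genes for the proteins of the cytosolic ribosome were examined in cultured ventricular myocytes of newborn rats. They were taken as the genes whose array annotation gives a single symbol of the form Rpl or Rps followed by a number, Rpsa or the Rplp stalk symbols, leaving out the Rps6k kinases, and each gene was represented by its brightest probe set. This gave 44 genes, 30 of the large and 14 of the small subunit, out of 10411 genes with a probe set of 1 symbol. The study had 3 Affymetrix rat arrays with 1 sample each. One sample was unstimulated, another was cultured with 20 µM phenylephrine, an agonist of α1-adrenergic receptors that makes cardiac myocytes grow, and another with 1 µM PAMH, a compound known here only by that code name (the submitters' keywords also include 5-hydroxytryptamine and pyridine). All cultures lasted 48 h and total RNA was measured, and the labels name no strain, age or number of animals. With 1 array per condition there is no replicate, standard error or p-value, and every ratio below compares single arrays.

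A ribosome is built from a large subunit, which forms peptide bonds, and a small subunit, which reads the mRNA. Each protein is needed in about one copy per ribosome, and the mRNAs for these proteins share a 5′ terminal oligopyrimidine (TOP) tract, a run of C and T letters at the start of the transcript through which mTOR and Larp1 control their translation. Growth of heart muscle cells is known to involve the making of more ribosomes. Control of TOP mRNAs acts largely on translation, which an mRNA array does not measure.

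The starts of 8 members are shown because this tract is the sequence feature the family is known for. They are the 30 bases around the annotated start (15 on each side), from RefSeq in build GRCr8, and capitals mark the longest unbroken run of C and T in each.
Rplp0, chr12:46718376-46718405, minus strand: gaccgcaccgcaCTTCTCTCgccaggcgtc
Rpl19, chr10:83519049-83519078, plus strand: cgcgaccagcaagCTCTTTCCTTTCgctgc
Rpl27a, chr1:172974558-172974587, plus strand: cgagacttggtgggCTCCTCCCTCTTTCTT
Rps23, chr2:23814502-23814531, plus strand: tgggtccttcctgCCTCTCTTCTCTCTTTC
Rps24, chr16:96502-96531, plus strand: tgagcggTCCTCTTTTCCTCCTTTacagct
Rps28, chr7:15311319-15311348, minus strand: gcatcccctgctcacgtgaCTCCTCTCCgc
Rpl39, chrX:121195882-121195911, minus strand: tcttctaatcgcgTTCTTCCggcctgtcct
Rpl41, chr7:1563483-1563512, minus strand: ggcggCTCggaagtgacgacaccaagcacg
Of the 44 genes, 37 were matched to a promoter, spread over 14 chromosomes. A run of at least 8 pyrimidines on the sense strand lay within 30 bases of the annotated start in 17 of 25 large subunit promoters and 10 of 12 small subunit promoters, against 22.6% of 18999 protein-coding promoters. Over the 300 bases of each promoter and on both strands, CTTTCC was found in 43.2% of the members against 26.3% of all, CGGAAG in 45.9% against 20.6%, and AAGATGG, which can include a start codon, in 21.6% against 7.58%. Matches of different motifs can overlap, CTTTCC can be part of a pyrimidine run, and a match is one of letters only. The longest run in the 60 bases around the start was 3 for Rpl41 and 19 for Rpl39. For Rpl24, Rpl7l1 and Rps27l, whose starts were also extracted but are not shown, it was 7, 5 and 4. The starts shown thus leave out members with short runs. An annotated start may differ from the one used in these cells.

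The labelled cell type was borne out by 14 of 15 cardiac myocyte markers on the array, all above the floor of signal defined below on all 3 arrays, with a summed signal of 94303 on the unstimulated, 119773 on the phenylephrine and 140420 on the PAMH array. Signals of marker lists drawn up for other cell types also differed between the arrays. The 10 fibroblast markers summed to 9548, 7337 and 5684 in that order, and the 7 smooth muscle markers to 5238, 12013 and 10153. Of these, 8 of 10 and 7 of 7 were above the floor on all 3 arrays. The smooth muscle list includes Des, Acta2 and Tagln, and whether its signal came from myocytes or from other cells was not tested. Of endothelial markers 3 of 4 on the array (Pecam1, Kdr and Vwf) were below the floor throughout, as were 3 of 6 macrophage markers (Cd68, Cd14 and Lyz2). So were 1 of 2 erythroid markers on the array (Hbb), and 2 of 2 of Schwann cells or neurons (S100b and Gap43). The 2 erythroid markers summed to 99.9 on the unstimulated, 177 on the phenylephrine and 72.9 on the PAMH array. For actin, signal at the 3′ end divided by that at the 5′ end, which reflects RNA integrity, was 1.72, 1.44 and 1.54. For GAPDH this ratio was 1.04, 1.07 and 1.01. The part of cell make-up and RNA quality in the ribosomal protein values was not tested, and in such bulk samples fewer cells of a type and less RNA per cell cannot be told apart.

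Intensities were scaled so that the 3 arrays had equal medians, and signals below a floor of 76.1 (percentile 40 of all scaled values) were treated as not measured. Of the 44 members, 42 were at or above the floor on all 3 arrays. The 38 brightest had mean signals from 2911 to 10333, all at or above percentile 98.0 of genes, and no member lay between these and the 6 dim ones, whose mean signals were 520 or less. These 38 included 26 large and 12 small subunit genes. A probe set's signal depends on its probes as well as on the transcript, so these signals do not order the mRNAs by abundance. Together the 44 probe sets took 4.03%, 4.22% and 4.19% of the summed signal of the unstimulated, phenylephrine and PAMH arrays.

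**Figure D1:**
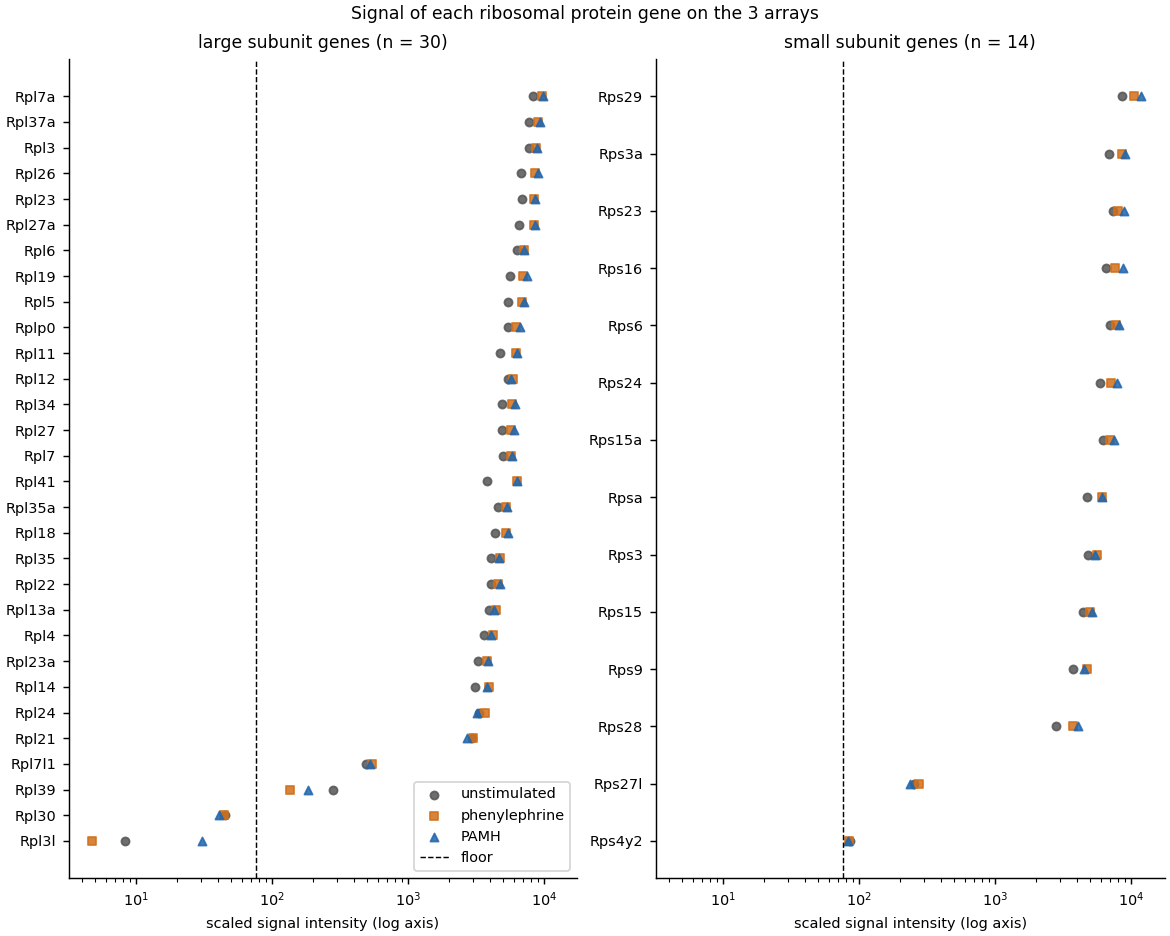
Scaled signal intensity (log axis) of each large subunit gene (30) and small subunit gene (14) on the unstimulated, phenylephrine and PAMH arrays, 1 array each, with the floor of 76.1 as a dashed line. The 38 bright genes have mean signals of 2911 or more, and Rpl3l and Rpl30 lie below the floor.

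The brightest large subunit members were Rpl7a, with signals of 8252 on the unstimulated, 9720 on the phenylephrine and 9902 on the PAMH array, Rpl37a (7822, 9094 and 9354) and Rpl3 (7697, 8682 and 8834), which lies close to the peptidyl transferase centre. Of the small subunit, Rps29, a zinc-binding protein of the subunit's head, had 8505, 10582 and 11912. It was followed by Rps3a (6917, 8589 and 8968) and Rps23 (7359, 7941 and 8830), whose protein reaches the decoding centre. In all of these the unstimulated array was lowest and the PAMH array highest under median scaling. On the deposited intensities Rpl7a (8798, 9489 and 9483) and Rpl3 (8206.5, 8474.9 and 8460) were highest with phenylephrine. Rps23 (7846, 7752 and 8456) was lowest with phenylephrine there. Among the 26 bright large subunit genes, 24 were lowest on the unstimulated array, Rpl21 and Rpl24 being lowest with PAMH, and 17 were highest with PAMH and 9 with phenylephrine. All 12 bright small subunit genes were lowest on the unstimulated array, and 10 were highest with PAMH. These counts are for median scaling. Under it, 78.1% of the genes in the brightest 10% by mean signal were higher with phenylephrine than unstimulated, and 82.1% with PAMH.

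The comparison of phenylephrine with unstimulated cells asked how these genes stood in cells under a hypertrophic agonist. Most stood a little higher on the phenylephrine array, under median scaling by about the same amount in both subunits and about as much as other genes of strong signal. The median log2 ratio was 0.22 over 28 measured large subunit genes and 0.22 over 14 small subunit genes, against 0.07 over all 6571 measured genes and 0.21 over the 1042 genes in the brightest 10% by mean signal (0.20 over the 1004 of these that are no members). Rpl41 stood above the rest and Rpl39 far below. The direction of both medians depended on the scaling: after quantile normalization they were -0.09 and -0.02, where the brightest 10% had -0.04, and after cyclic loess -0.08 and -0.05, where it had -0.01.

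Of the large subunit genes, 27 of 28 had a ratio above 0, against 57.6% of all measured genes and 78.1% of the brightest 10%. After quantile normalization 8 of 28 were above 0, and after cyclic loess 8. All measured genes then had medians of -0.019 and -0.0053, and their shares above 0 were not counted. Rpl41 was the 1 gene higher by 1.5-fold or more, against 8.9% of all measured genes and 15.2% of the brightest 10%. Rpl39 was the 1 gene lower by that much, against 4.54% and 1.63%. Past a log2 ratio of 0.32, the lower threshold used here, 7 of 28 were higher, against 22.9% of all and 35% of the brightest 10%, and 1 was lower, against 13.9% and 5.18%. The count of higher genes was thus near the background. The ratios lay close together, with quartiles of 0.17 and 0.31, where those of the brightest 10% were 0.04 and 0.42. Among the small subunit genes 13 of 14 had a ratio above 0, none was past 1.5-fold in either direction, and 3 were higher by more than 0.32. After quantile normalization 6 of 14 were above 0, and after cyclic loess 4.

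Rpl41, which encodes a very short protein at the interface of the subunits, had signals of 3835 on the unstimulated, 6352 on the phenylephrine and 6326 on the PAMH array. It was 1.66-fold higher with phenylephrine, a log2 ratio of 0.73. Quantile normalization gave 0.42 and cyclic loess 0.43, under 1.5-fold but above 0. Rpl41 exceeded the large subunit median by 0.51 under each of the 5 scalings tried. For the deposited intensities and percentile 75 scaling this had to be so, because they differ from median scaling only by a constant factor per array. The distance is more than 0.27, the pooled SD with which probe sets of a common gene disagreed on this ratio over 864 genes. This technical spread serves as a yardstick and holds no variation between cultures. Rpl39, which lines the exit tunnel for the new peptide, had signals of 278, 136 and 184 in the same order of arrays. It was 2.04-fold lower with phenylephrine, and its log2 ratio of -1.03 lay between -1.16 and -1.03 over the 5 scalings. It was measured by 1 dim probe set, with a mean signal of 199.

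Between Rpl41 and Rpl39 the other large subunit genes lay from 0.03 to 0.39. Rpl11 was highest of these, which with Rpl5 binds the 5S rRNA and can bind the p53 regulator Mdm2, with signals of 4779, 6276 and 6310 and a log2 ratio of 0.39. Rpl5 had 5481, 6912 and 7108 and a ratio of 0.33. Both genes of this particle were thus higher with phenylephrine under median scaling, but the ratio of Rpl5 was 0 after quantile normalization, whereas that of Rpl11 lay between 0.09 and 0.39 over the 5 scalings. Rpl27a (6549, 8417 and 8524) had 0.36 and Rpl14 (3116, 3940 and 3840) 0.34. At the lower end, Rpl21 (2967, 3029 and 2738) had 0.03. Rpl12, a protein of the stalk base, had signals of 5471, 5887 and 5746 and a ratio of 0.11. Rplp0, the stalk protein that carries the P1 and P2 dimers, had 5398, 6209 and 6660 and a ratio of 0.20. Among proteins of the tunnel and its exit other than Rpl39, the ratios of Rpl4, Rpl19, Rpl23a, Rpl26 and Rpl35 lay between 0.21 and 0.34.

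Of the small subunit, Rps28 had the highest ratio, with signals of 2815 on the unstimulated, 3761 on the phenylephrine and 4032 on the PAMH array and a log2 ratio of 0.42. It stayed between 0.12 and 0.42 over the 5 scalings. Rpsa, which is also known as the laminin receptor precursor, had 4734, 6092 and 6136 and a ratio of 0.36, and its other probe sets had 0.48 and 0.57. Rps9, which lines the mRNA entry channel, had 3741, 4723 and 4512 and a ratio of 0.34, and its neighbour Rps3 (4801, 5566 and 5412) had 0.21. Rps29 had 0.32. Rps6, the substrate of the S6 kinases, had 6962, 7757 and 8087 and a ratio of 0.16, and Rps23 had 0.11. None of the 14 ratios was further from the subunit median than the technical spread of 0.27.

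Genes that had the same sign under median scaling, the deposited intensities, percentile 75 scaling, quantile normalization and cyclic loess were few. With phenylephrine these were Rpl11, Rpl14, Rpl19, Rpl26, Rpl27a, Rpl41 and Rpl7l1 of the large subunit and Rps28, Rps9 and Rpsa of the small subunit on the higher side, and Rpl39 and Rps4y2 on the lower side. The ratio of Rps4y2 was only -0.04 under median scaling. Some on the higher side came close to 0: Rpl26 had 0.0011 and Rpl19 0.0023 after cyclic loess, Rpl7l1 0.0080 on the deposited intensities and Rps9 0.014 after quantile normalization. How many of all measured genes kept their sign was not counted.

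**Figure D2:**
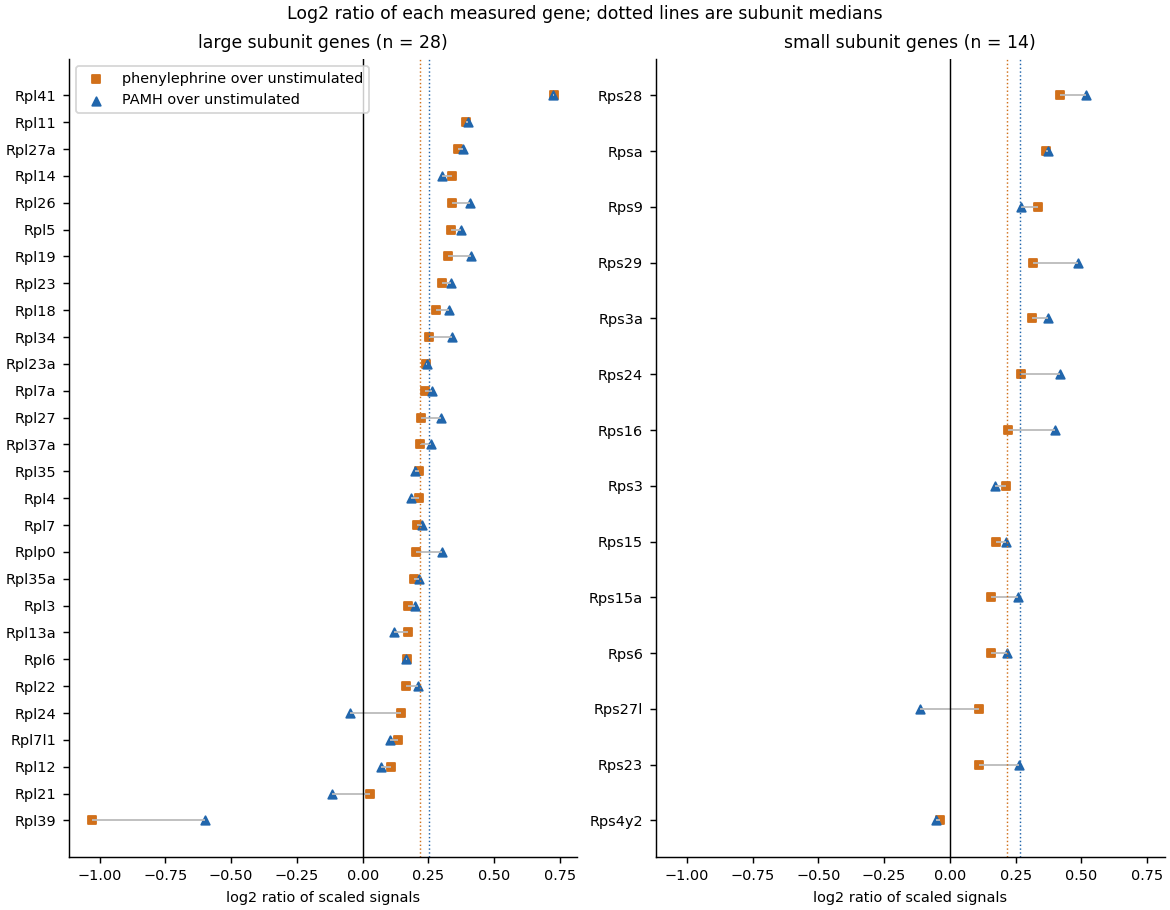
Log2 ratio of scaled signals (x axis) for each measured large subunit gene (28) and small subunit gene (14), phenylephrine over unstimulated (squares) and PAMH over unstimulated (triangles), which share the unstimulated array; dotted lines are the subunit medians, and there are no error bars because each condition has 1 array. Rpl41 lies at 0.73 and 0.72 and Rpl39 at -1.03 and -0.60, apart from the others.

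The same question was asked of PAMH, at its own dose of 1 µM. Ribosomal protein genes were again mostly a little higher than in unstimulated cells, with medians of 0.25 for the large and 0.27 for the small subunit. The brightest 10% of genes had 0.28 and all 6549 measured genes 0.10. Rpl41 was again highest and Rpl39 lowest, and Rpl21 and Rpl24 were lower than in unstimulated cells. The medians turned to -0.15 and -0.07 after quantile normalization, where the brightest 10% had -0.02, and to -0.14 and -0.08 after cyclic loess, where it had 0.01. Both treatments share the unstimulated array, so a deviation of that array enters both sets of ratios.

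Of the large subunit genes 25 of 28 had a ratio above 0 with PAMH, and of the small subunit genes 12 of 14, against 61.1% of all measured genes and 82.1% of the brightest 10%. After quantile normalization 3 of 28 and 4 of 14 were above 0. All measured genes then had a median of -0.0030, and their share above 0 was not counted. Rpl41 was again the 1 large subunit gene higher by 1.5-fold or more, against 9.31% of all measured genes and 18.3% of the brightest 10%, and Rpl39 the 1 lower, against 4.17% and 1.44%. No small subunit gene was past 1.5-fold. Past 0.32 on the log2 scale 9 of 28 and 6 of 14 were higher, against 25.9% of all and 44% of the brightest 10%, and 1 and 0 were lower, against 12.5% and 4.22%. In the large subunit that split of 9 higher and 1 lower became 0 higher and 4 lower after quantile normalization, where the shares of other genes were not counted.

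Rpl41 was 1.65-fold higher with PAMH, a log2 ratio of 0.72. On the deposited intensities this was 0.57, after quantile normalization 0.31 and with cyclic loess 0.33, each under 1.5-fold. Rpl39 was 1.51-fold lower, a log2 ratio of -0.60, and with an offset of 50 it had -0.49, below 1.5-fold. Rpl19 and Rpl24, whose proteins reach across to the small subunit as bridges like that of Rpl41, differed. Rpl19 had signals of 5612 on the unstimulated, 7019 on the phenylephrine and 7470 on the PAMH array and a ratio of 0.41 with PAMH, which was -0.03 after quantile normalization and -0.01 after cyclic loess. Rpl24 had 3301, 3654 and 3193 and a ratio of -0.05, which lay between -0.41 and -0.05 over the scalings. Rpl21 had -0.12, between -0.48 and -0.12. Rpl21, Rpl24, Rpl39 and Rpl41 were the 4 large subunit genes further from their subunit's median than the technical spread of 0.29 under median scaling. This distance is only 1 SD, and the share of other genes beyond it was not counted, so it does not mark outliers. Rpl24 was inside the technical spread after quantile normalization (-0.26 from the median) and cyclic loess (-0.25). Rpl26 (6834, 8639 and 9064) had 0.41, but -0.04 after cyclic loess, and Rpl11 0.40, but -0.01 after quantile normalization. Rpl12 had 0.07, but -0.35 after quantile normalization.

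In the small subunit Rps28 again led with a ratio of 0.52 for PAMH, between 0.17 and 0.52 over the scalings, the only higher gene of the subunit whose sign held under all 5. Rps29 had 0.49 and Rps24 (5883, 7094 and 7867) 0.42. Rps16, whose protein touches the tRNA in the P site, had 6580, 7659 and 8683 and a ratio of 0.40. Each of these 3 was below 0 after quantile normalization or cyclic loess. Rps3 had 0.17 and Rps15 (4442, 5017 and 5153) 0.21. Lower than in unstimulated cells were only Rps27l (-0.11) and Rps4y2 (-0.05), both paralogs of core genes, and these were the 2 small subunit genes beyond the technical spread from the median under median scaling. After quantile normalization they lay -0.09 and 0.01 from it, and after cyclic loess -0.08 and 0.03, within that spread.

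**Figure D3:**
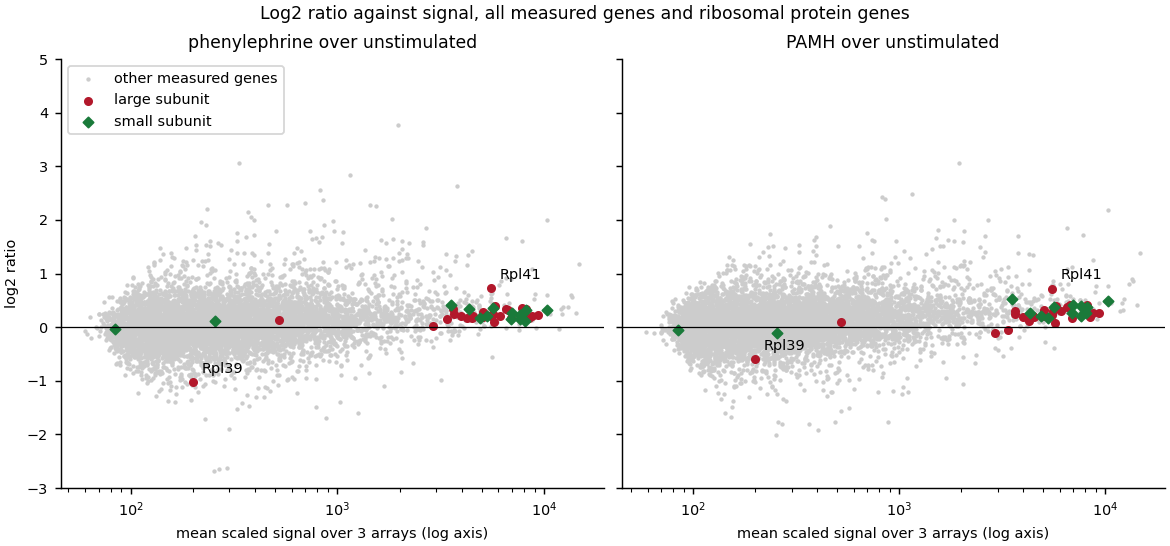
Log2 ratio (y axis) against the mean scaled signal over the 3 arrays (x axis, log) for all measured genes (grey), large subunit genes (circles) and small subunit genes (diamonds), for phenylephrine (left) and PAMH (right) over unstimulated. The bright ribosomal protein genes form a narrow band, all above 0 with phenylephrine and all but Rpl21 and Rpl24 with PAMH, near the brightest 10%'s medians of 0.21 and 0.28, with Rpl41 above and Rpl39 below it.

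The ratios of all genes depended on signal, which bears on genes as bright as these. Under median scaling the median log2 ratio with phenylephrine was 0.07, 0.11 and 0.21 in the brightest 3 of 10 equal classes of mean signal, class 8 to class 10, and with PAMH it was 0.10, 0.14 and 0.28. The brightest class held 38 of the 44 members. Quantile normalization and cyclic loess are built to even out such a dependence, and under both the ribosomal protein medians lay below 0. Under cyclic loess with PAMH, 1 of 28 large and 2 of 14 small subunit genes had a ratio above 0. The median there was 0.00096 for all measured genes and 0.0053 for the brightest 10%, and their shares above 0 were not counted.

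**Figure D4:**
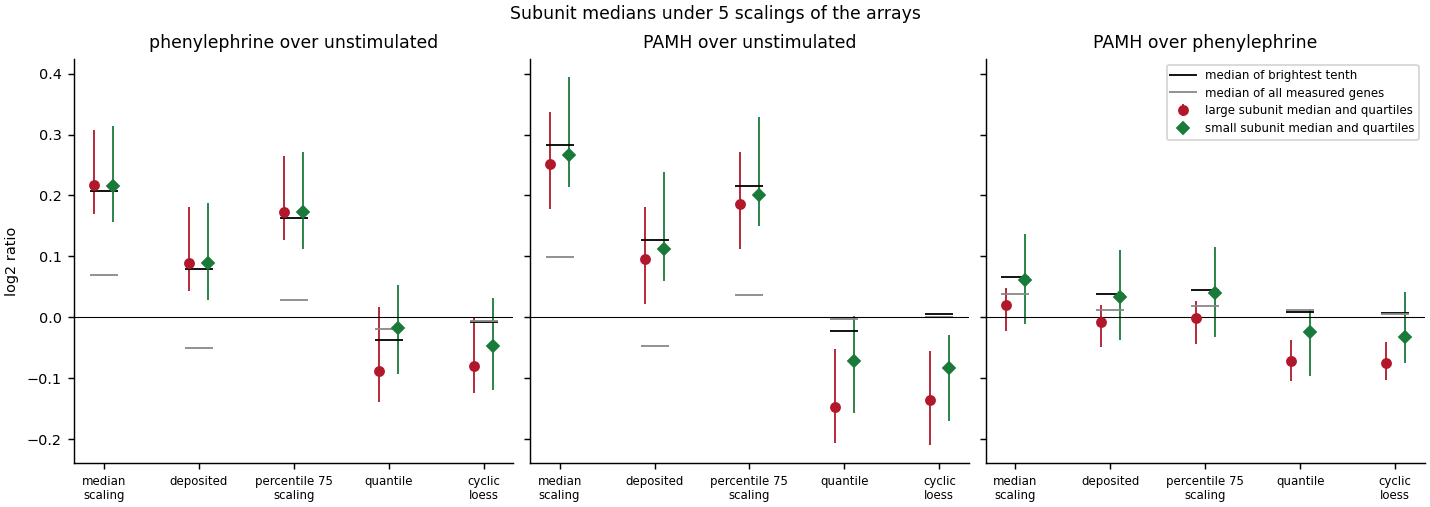
Median log2 ratio with quartiles (bars) of the large subunit (circles) and small subunit (diamonds) under 5 scalings of the 3 arrays, for each of the 3 comparisons; dashes mark the medians of the brightest 10% and of all measured genes. With phenylephrine the large subunit median is 0.22 under median scaling and -0.08 after cyclic loess.

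PAMH was set beside phenylephrine directly, though the doses differ and no comparison at matched dose is possible. The family differed little between the arrays. The median log2 ratio of PAMH over phenylephrine was 0.02 for the large and 0.06 for the small subunit, against 0.04 over 6593 measured genes and 0.07 in the brightest 10%. The large subunit median was below 0 under the other 4 scalings, from -0.07 to -0.0013, and the small subunit median was -0.02 after quantile normalization and -0.03 after cyclic loess. Above 0 were 18 of 28 large and 10 of 14 small subunit genes, against 56.7% of all and 64.4% of the brightest 10%. None was past 1.5-fold, against 1.93% of all and 0.48% of the brightest 10% higher and 2.67% and 1.15% lower. Past 0.32 on the log2 scale only Rpl39 was higher, 1 of 28, against 11.8% of all and 6.81% of the brightest 10%, and none was lower, against 10.1% and 4.8%.

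Rpl39 had a ratio of 0.43, with a range of 0.40 to 0.43 over the scalings, so its signal with PAMH lay between those of the other 2 arrays. Rpl24 was lowest at -0.19 and Rpl21 at -0.15, both below 0 under all 5 scalings. Rplp0 (0.10), Rpl19 (0.09) and Rpl34 (0.09) were next after Rpl39, and Rpl13a, which can silence translation after interferon γ, had -0.05 with signals of 3971, 4471 and 4316. In the small subunit Rps16 (0.18), Rps23 (0.15) and Rps24 (0.15) were above 0 under all 5 scalings, while Rps29 (0.17) was -0.03 after quantile normalization. Rps27l (-0.22), Rps9 (-0.07) and Rps3 (-0.04) were below 0 under all 5. The small subunit median exceeded the large by 0.04 under median scaling and by 0.05 after quantile normalization.

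The paralogs among the members all had dim probe sets. Rpl3l, the paralog of Rpl3 known from striated muscle, was below the floor on all 3 arrays, with signals of 8.25, 4.71 and 30.3. Rps27l, a paralog of Rps27 known as a p53 target, had 254, 275 and 235, and Rps4y2, by its symbol a relative of Rps4, 86.1, 84.0 and 83.0, just above the floor. Rpl7l1, a paralog of Rpl7, had 492, 540 and 528 and ratios of 0.14 with phenylephrine and 0.10 with PAMH, beside 0.20 and 0.23 for Rpl7 (4979, 5739 and 5826). The dimmer probe set of Rpl7l1 had -0.21 and 0.11, so its direction with phenylephrine was not shared by both probe sets. The dimmer one of Rpl7 (425, 467 and 399) had 0.14 and -0.09, so for Rpl7 the direction with PAMH was not shared. Without the paralogs the medians were 0.22 and 0.26 for 27 large subunit genes and 0.24 and 0.32 for 12 small subunit genes, with phenylephrine and PAMH.

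Probe sets of the same gene could differ widely in signal. Of the 5 members with several probe sets, Rps24 had a second one at 80.6, 88.7 and 91.8, and that of Rpl14 (85.1, 70.4 and 10.4) was below the floor on the treated arrays. The only probe set of Rpl30 with 1 symbol was below the floor throughout, at 45.2, 44.0 and 40.9. Rps24 and Rpl14 thus each had a dim probe set beside a bright one, while Rpl39 had only its dim one. No member had measured probe sets that differed by more than 0.5 in log2 ratio.

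Other ribosomal protein probe sets carry several symbols in the annotation and were not counted as members. There were 15 for the large and 12 for the small subunit, and 1 with symbols of both. Their medians were close to those of the members, at 0.24 and 0.21 with phenylephrine and 0.29 and 0.29 with PAMH under median scaling. With phenylephrine all 15 and all 12 had a ratio above 0, against 57.6% of all measured genes and 78.1% of the brightest 10%. With PAMH 14 and 12 did, against 61.1% and 82.1%. Most were bright, with mean signals over 2000 in 14 of the 15 and in all 12. Only median scaling was used for these probe sets, so whether their direction depended on the scaling was not tested.

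Other genes of the translation machinery were taken from lists. Rack1, a protein of the small subunit outside the symbol rule, had signals of 4410 on the unstimulated, 4724 on the phenylephrine and 4913 on the PAMH array, with ratios of 0.10 and 0.16 that were -0.22 and -0.24 after quantile normalization. Of 13 other transcripts known to carry a TOP tract, 6 were higher by more than 0.32 on the log2 scale with phenylephrine and 5 with PAMH and none lower. Of all measured genes 22.9% and 25.9% were higher by that much, and of the brightest 10% 35% and 44%. Lower by that much were 13.9% and 12.5% of all measured genes and 5.18% and 4.22% of the brightest 10%. The medians were 0.24 and 0.26, the latter -0.08 after quantile normalization. The elongation factor genes Eef1d (0.59 and 0.61) and Eef1g (0.58 and 0.57) and Hnrnpa1 (0.52 and 0.63) led this list and kept their sign under the 5 scalings, and Gas5, a non-coding RNA whose level is tied to growth arrest, was lowest (-0.18 and -0.31).

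Of 71 mitochondrial ribosomal protein genes, which serve the separate ribosome of the mitochondria, 23 of 70 measured were higher by more than 0.32 on the phenylephrine array and 1 was lower (median 0.19), and 37 of 70 were higher and none lower with PAMH (median 0.34). Among all measured genes 22.9% were higher and 13.9% lower with phenylephrine, and 25.9% and 12.5% with PAMH. Both medians stayed above 0 under all 5 scalings, with 0.11 and 0.19 after cyclic loess. Mrpl54 led with both compounds (1.04 and 0.82), with signals of 431, 885 and 762. Mrpl12, which also binds the mitochondrial RNA polymerase, had 0.60 and 0.75, and Mrps15 was lowest with phenylephrine (-0.46) and had 0.05 with PAMH, where Mrpl1 was lowest (-0.27).

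Of 44 genes of ribosome assembly and rRNA synthesis on the array, 13 of 41 measured were higher by more than 0.32 on the phenylephrine array and 2 were lower (median 0.17), and 8 of 39 were higher and none lower with PAMH (median 0.12, but -0.04 on the deposited intensities). Against the same shares of all measured genes (22.9% and 25.9% higher), the count with PAMH was not above the background. Lower by more than 0.32 were 13.9% of all measured genes with phenylephrine and 12.5% with PAMH. PAMH over phenylephrine had a median of -0.12, between -0.15 and -0.12 over the 5 scalings. Under median scaling 15 of 40 genes were above 0 and 25 below, against 56.7% of all measured genes above 0. Gar1, of the particles that make pseudouridine in rRNA, had 77.0, 199 and 155 and ratios of 1.37 and 1.01, its unstimulated signal being near the floor. The RNA polymerase I subunit genes Polr1e (0.89 and 0.62) and Polr1c (0.79 and 0.44) and the Gar1 partner Nhp2 (0.62 and 0.70) followed with phenylephrine. With PAMH Nhp2 and Polr1e came next after Gar1, then Eif6 (0.47). Sbds, which helps release Eif6 from the new large subunit, was lowest with phenylephrine (-0.51), and Polr2e, a subunit shared by the RNA polymerases, with PAMH (-0.26).

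Of 31 genes listed for the S6 kinases and mTOR signalling 25 were on the array, and 3 of 24 measured were higher by more than 0.32 on the phenylephrine array and 5 were lower. Their median of 0.03 was below 0 under the other 4 scalings. With PAMH 6 of 22 were higher and 5 lower. All measured genes had 22.9% higher and 13.9% lower with phenylephrine, and 25.9% and 12.5% with PAMH. The translation repressor gene Eif4ebp1 (0.71 and 0.56) and Mtor itself (0.53 and 0.57) were highest with the 2 compounds in turn, and the mTOR inhibitors Sesn1 (-0.94 and -0.87) and Ddit4 (-0.52 and -0.95) lowest. The Sesn1 signals with the compounds, 89.8 and 94.3, were near the floor. Other mTOR inhibitors of the list did not share this: Tsc2 had 0.04 and 0.35, Tsc1 0.06 and -0.19, and Deptor 0.02 and -0.40. The S6 kinase gene Rps6kb1 had signals of 203, 196 and 219. Pdk1 was in this list by its symbol, which in the rat is that of a pyruvate dehydrogenase kinase, and at -0.38 and -0.39 it is 1 of the 5 genes counted as lower with each compound.

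**Figure D5:**
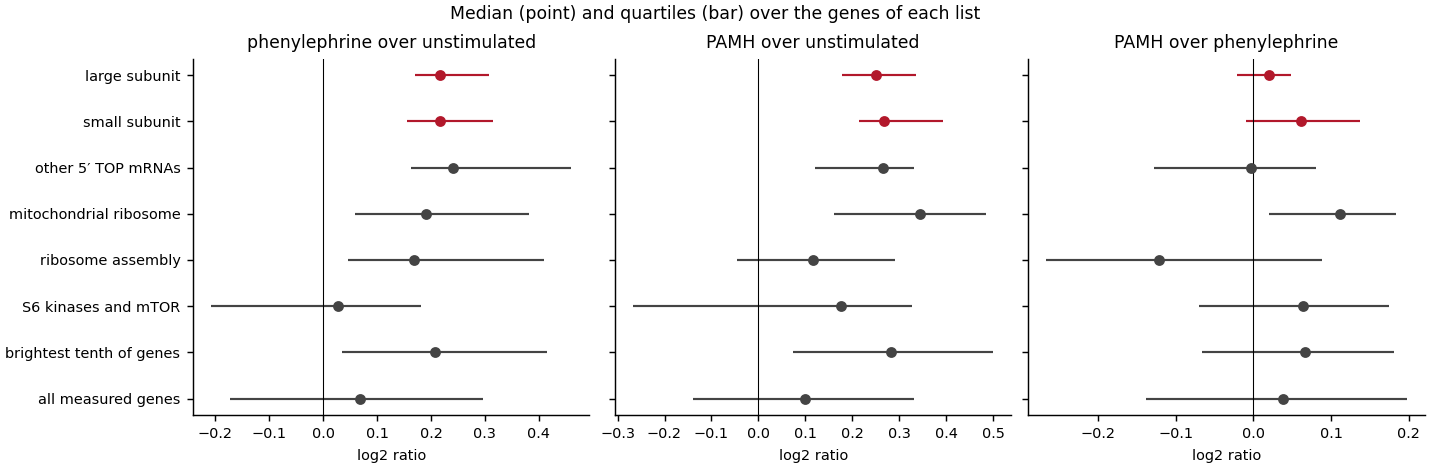
Median log2 ratio (points) and quartiles (bars) over the measured genes of each list, under median scaling, for the 3 comparisons; ribosomal protein lists in red. The cytosolic subunits lie at 0.22 with phenylephrine, close to the brightest 10% of genes, and the mitochondrial list at 0.34 with PAMH.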

How the data were processed

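The deposited table holds linear signal intensities of 15923 probe sets on each array. How the authors made them (software, settings) is not given in the sources used here. Their trimmed mean (2% at each end) was 250.1 on each array. Control probe sets (57) were left out. Of the others, 12783 carried 1 gene symbol, 312 several and 2771 none in the platform annotation. Symbols other than the members' were updated through gene identifiers.

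Each array was scaled to a common median, by factors of 0.938, 1.02 and 1.04 (unstimulated, phenylephrine, PAMH). On the deposited intensities the median of all measured genes was -0.05 with either compound, against 0.07 and 0.10 after scaling. Ratios were taken where both arrays were at or above percentile 40 of all scaled values. Counts use 1.5-fold and a log2 ratio of 0.32. Median and counts stand beside all measured genes and the brightest 10% by mean signal. No test was possible with 1 array per condition, which also limits the precision. The ratio script was tested on simulated data. The text names, per subunit and comparison, the 4 highest and 4 lowest members, the brightest and dimmest, paralogs, Rplp0, Rpsa and Rps6, and leading members of other lists, with further members by role.

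Members, lists and roles were chosen with earlier results of these data known. Promoters were matched by gene identifier. Python 3.11.15, pandas 2.3.3, R 4.3.3 and limma 3.58.1 were used. Alternatives were other scalings, an offset of 50, other probe set rules and floors, and leaving out paralogs, and including probe sets with several symbols was added after seeing the data.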

Additional observations from a re-analysis of the deposited data

How the results depend on the processing

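The choice of scaling decided the sign of the subunit medians. After quantile normalization the median log2 ratios of the large subunit were -0.089 with phenylephrine, -0.15 with PAMH and -0.072 for PAMH over phenylephrine, and those of the small subunit -0.017, -0.072 and -0.024. After cyclic loess they were -0.081, -0.14 and -0.074, and -0.046, -0.084 and -0.033. For PAMH over phenylephrine the large subunit median was also -0.0075 on the deposited intensities and -0.0013 with percentile 75 scaling. No other alternative turned a median. Counts below are genes past the threshold in either direction. Past a log2 ratio of 0.32 the large subunit count with phenylephrine (8 under median scaling) was 2 on the deposited intensities, after quantile normalization and after cyclic loess, 3 with percentile 75 scaling, 7 with a floor at percentile 60, which removes Rpl39, 9 without a floor and 13 with probe sets of several symbols. With PAMH (10) it was 2 on the deposited intensities, 5 with percentile 75 scaling, 4 after quantile normalization, 5 after cyclic loess and 17 with probe sets of several symbols. For PAMH over phenylephrine (1) it was 2 with the dimmest probe set, without a floor and with probe sets of several symbols, and 0 with a floor at percentile 60. The small subunit count with phenylephrine (3) was 0 on the deposited intensities, after quantile normalization and after cyclic loess and 1 with percentile 75 scaling, and with PAMH (6) it was 2 on the deposited intensities, 0 after quantile normalization and cyclic loess and 10 with probe sets of several symbols. At 1.5-fold the large subunit count of 2 with phenylephrine was 1 after quantile normalization, cyclic loess and with a floor at percentile 60, and 3 without a floor and with probe sets of several symbols. With PAMH it was 1 on the deposited intensities, after quantile normalization, cyclic loess and with an offset of 50, and 3 without a floor and with probe sets of several symbols. For PAMH over phenylephrine the count of 0 was 1 without a floor. The cause of these differences between scalings was not tested. Of 1255 single-gene values recomputed, 1110 moved by less than the technical spread and 145 by more. Many could not move under the other probe set rules, because only 5 of the 44 members have several probe sets. The values past 1.5-fold, those of Rpl41 and Rpl39 with each compound, kept their sign. Over the 5 scalings the ratio with phenylephrine changed sign or reached 0 in 20 of 28 large and 10 of 14 small subunit genes. With PAMH it did so in 24 and 11, and for PAMH over phenylephrine in 17 and 6. The share of all measured genes that changed sign was not counted, so these counts do not set the family apart from other genes. No paired analysis was possible because each condition has 1 array.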
